A study of Homo sapiens with 33 samples.

Results

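Matrix metalloproteinases (MMP), the related ADAMTS proteases and the tissue inhibitors of metalloproteinases (TIMP) were followed in cultured pleural mesothelioma cells under the CDK4/6 inhibitor palbociclib. The genes were taken as the rows of the expression matrix whose name was exactly MMP or ADAMTS with a number, or TIMP1 to TIMP4. This gave 45 of 58302 genes, which were 22 MMP, 19 ADAMTS and 4 TIMP genes.

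The data were 33 RNA-seq libraries of 6 established cell lines. H2052, H2452, H28 and MSTO-211H are malignant pleural mesothelioma (MPM) lines sensitive to palbociclib. The resistant lines were MPP89 (MPM, RB1 mutated) and MeT-5A (mesothelial cells immortalized with SV40, in which pRb is inactivated). Cells received 1 µM palbociclib or 0.1% DMSO for 9 days or 10 days in paired experiments, and each line is a single line without further donors. There were 2 pairs for H2052 and MPP89, 3 pairs for H2452, H28 and MSTO-211H, and 1 pair and 1 untreated library for MeT-5A. In the 10 days experiment of each sensitive line, another culture was kept for 48 h without the drug (washout), which gave 1 library per line.

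The authors scaled the reads counted per gene to 20000000 per library (CP20M) and rounded the values up. A gene was tested where it reached 100 CP20M in at least 1 library, which left 17803 genes. Differences are on the log2(CP20M + 10) scale, which understates the change of low genes, and DE stands for a fold change above 1.5 with an FDR under 0.05 over all 17803 genes in limma. These bulk values do not tell more RNA per cell from more cells that express a gene.

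MMPs are made as inactive zymogens and cleave collagens, proteoglycans and other proteins of the extracellular matrix, either as secreted enzymes or anchored in the plasma membrane. ADAMTS proteases are secreted, and act mostly on proteoglycans, procollagens and microfibrils. TIMPs bind the active site of MMPs, and TIMP3 inhibits ADAMTS proteases as well. TIMP2 also takes part in the activation of pro-MMP2 by MMP14 at the cell surface.

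MKI67, the proliferation marker, fell in all 11 pairs of sensitive lines, with log2 differences from -5.44 to -1.40, and differed by -0.01 to 0.15 in the 3 pairs of resistant lines. The smallest fall among the sensitive lines was in experiment 1 of MSTO-211H. Of 7 mesothelial markers, 4 reached a mean of 100 CP20M in the controls of H2052, 5 in H2452, 2 in H28 and MSTO-211H, and 3 in MPP89 and MeT-5A, and mesothelin (MSLN) was at 4.33 CP20M in H28. The sum of the 7 markers lay between 4541 and 5282 CP20M in H28 with DMSO and between 7942 and 12182 with palbociclib, most of it the keratin KRT19, and in the other sensitive lines the ranges of treated and control libraries overlapped. Single markers moved both ways under these sums. In H2052, CALB2 (23 to 25 CP20M with DMSO, 231 to 238 with palbociclib) and MSLN (3513 to 4999, 6180 to 6853) were higher. KRT19 (20856 to 26295, 17981 to 18404) and WT1 (506 to 591, 441 to 461) were lower there. In H2452, CALB2 (43 to 117, 143 to 893) and PDPN (360 to 682, 885 to 1651) were higher. WT1 was lower in that line (248 to 303, 76 to 197). Of 2 epithelial markers, CLDN4 was between 1363 and 1912 CP20M in the controls of H28 and at most 199 in those of the other lines. EPCAM did not exceed 62 CP20M in any control. Among leukocyte markers in H2452, CD14 was between 133 and 361 CP20M with DMSO and between 284 and 1130 with palbociclib, while PTPRC did not go above 2 and CD3E was at 0. CD14 was also between 116 and 121 CP20M in the controls of MPP89 and MeT-5A. The part of these markers in the differences of H2052, H28 and H2452 was not tested. The depth of 22 libraries could be estimated from skipped values and was between 12770000 and 19590000 reads.

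For 26 of the 45 genes, RefSeq gives a promoter window on GRCh38.p14. The 250 bases before the start are shown for 4 genes on whose behaviour the results turn, chosen after their values were seen: the inhibitors TIMP1 and TIMP3, the matrilysin MMP7 and ADAMTS6, which fell. Capitals mark the searched motifs on either strand, which were the AP-1 site TGANTCA, the TATA box TATAAA and the GC box GGGCGG. TIMP1 is at chrX:47582186-47582435 on the plus strand, TIMP3 at chr22:32801455-32801704 on the plus strand, MMP7 at chr11:102530748-102530997 on the minus strand and ADAMTS6 at chr5:65481921-65482170 on the minus strand.
TIMP1: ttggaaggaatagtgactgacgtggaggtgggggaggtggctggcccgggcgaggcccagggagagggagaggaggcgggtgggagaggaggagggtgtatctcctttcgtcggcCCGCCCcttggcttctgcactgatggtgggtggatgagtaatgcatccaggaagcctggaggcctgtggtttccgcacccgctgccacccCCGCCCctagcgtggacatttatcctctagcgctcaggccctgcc
TIMP3: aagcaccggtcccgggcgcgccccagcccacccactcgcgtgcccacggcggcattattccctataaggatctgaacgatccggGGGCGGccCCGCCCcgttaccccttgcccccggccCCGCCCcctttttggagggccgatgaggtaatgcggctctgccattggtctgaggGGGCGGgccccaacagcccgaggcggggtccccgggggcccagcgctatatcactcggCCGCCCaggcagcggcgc
MMP7: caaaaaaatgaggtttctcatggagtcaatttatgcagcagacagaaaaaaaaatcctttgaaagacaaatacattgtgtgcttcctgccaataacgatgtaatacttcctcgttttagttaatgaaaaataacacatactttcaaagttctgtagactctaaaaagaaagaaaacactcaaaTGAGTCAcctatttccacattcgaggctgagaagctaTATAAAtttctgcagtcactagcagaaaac
ADAMTS6: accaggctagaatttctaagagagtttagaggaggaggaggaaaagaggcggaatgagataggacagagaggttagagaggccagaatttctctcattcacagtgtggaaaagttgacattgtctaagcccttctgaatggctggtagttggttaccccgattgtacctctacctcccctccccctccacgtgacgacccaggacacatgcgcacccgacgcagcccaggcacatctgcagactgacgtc
MMP7 holds an AP-1 site that begins 67 bases before the start and a TATA box that begins 30 bases before it, in a window with 33.6% GC. The TIMP1 window holds 2 GC boxes and the TIMP3 window 5, at 64.8% and 72.4% GC. No searched motif was found in the ADAMTS6 window. In the same 250 bases, the AP-1 letters occur in 6.57% of 35116 promoters, the TATA letters in 10.7% and the GC box letters in 42.6%. Among the 26 genes with a window, the AP-1 letters were found in 4, the TATA letters in 7 and the GC box letters in 18. Such matches describe the letters of the window and are not evidence of binding.

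Of the 45 genes, 28 were tested: 12 MMP, 13 ADAMTS and 3 TIMP genes. The other 17 stayed under 100 CP20M in every library. They were MMP8, MMP9, MMP10, MMP12, MMP13, MMP20, MMP21, MMP26, MMP27, MMP28, ADAMTS4, ADAMTS8, ADAMTS17, ADAMTS18, ADAMTS19, ADAMTS20 and TIMP4. The gelatinase MMP9 did not go above 78 CP20M, TIMP4 above 81 or the aggrecanase ADAMTS4 above 91, while the lowest tested genes reached 197 (MMP3), 238 (MMP11) and 268 (MMP19). MMP26 and MMP27 were listed at 0 in all 33 libraries. Of the collagenases, MMP8 did not exceed 2 CP20M and MMP13 did not exceed 8, which left MMP1.

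In the controls, the lines differed widely in these genes. All 28 tested genes differed among the 6 lines (F test), as did 96.3% of all tested genes. Per kilobase of exon, TIMP2 was the highest of the 28 genes in every line, from 892 CP20M per kb in H28 to 3798 in H2052. TIMP3 was almost as high in H2052 (3716 CP20M per kb), but was at 19.5 in H28. MMP14, the membrane-type enzyme that activates pro-MMP2, was the highest protease per kb in H2052 (985), H2452 (1836), MPP89 (707) and MeT-5A (687). In H28 the highest protease was ADAMTS9, a versican-cleaving enzyme, at 296 CP20M per kb, and in MSTO-211H it was ADAMTS6 at 384. These orders within a line were not tested.

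**Figure D1:**
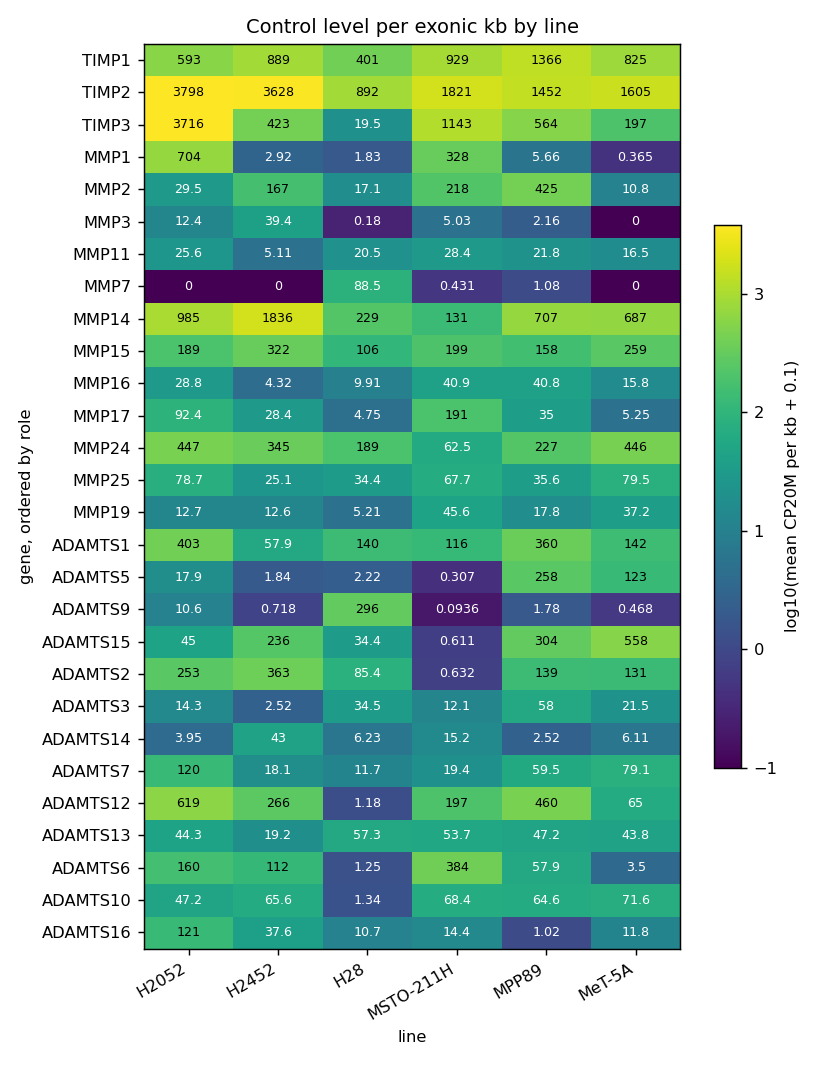
Mean control level of the 28 tested genes in CP20M per kilobase of exon (numbers in the cells, colour on a log10 scale) for each line, over 2 or 3 DMSO libraries, and over 1 DMSO and 1 untreated library for MeT-5A. TIMP2 is the highest gene in each line, while TIMP3 runs from 19.5 in H28 to 3716 in H2052.

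Several genes were near 0 in some lines and abundant in others. TIMP3 had control means of 17084 ± 1863 CP20M (SD, n = 2) in H2052, 5255 ± 1009 (n = 3) in MSTO-211H, 2593 ± 192 (n = 2) in MPP89, 1945 ± 1590 (n = 3) in H2452 and 89.7 ± 35.1 (n = 3) in H28. MeT-5A had 441 CP20M with DMSO and 1374 untreated. H2052 was above and H28 below each of the other lines, whereas the neighbours from MSTO-211H to MeT-5A in that order did not differ beyond the threshold. ADAMTS12 spanned a log2 range of 8.35 between H2052 and H28, ADAMTS9 8.14 between H28 and MSTO-211H, and ADAMTS15 7.95 between MeT-5A and MSTO-211H. The median range was 3.89 over the 28 genes and 1.71 over all tested genes. H2052 held the highest level of 9 of the 28 genes and the lowest of 0, while H28 held the lowest of 10.

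With palbociclib, 12 of the 28 tested genes were DE over the 11 pairs of sensitive lines. This was 42.9% of them, against 15% of all tested genes (2663 of 17803). The fit takes pairs as units although they come from 4 lines, and with line means as units fewer of the 28 genes passed. TIMP1, ADAMTS6, ADAMTS14 and ADAMTS15 were among those that still did. The 11 genes that rose were TIMP1, TIMP2, TIMP3, MMP1, MMP7, MMP15, MMP24, ADAMTS5, ADAMTS12, ADAMTS14 and ADAMTS15, and 5.58% of all tested genes rose. ADAMTS6 fell, as did 9.37% of all tested genes. The median log2 difference was 0.39 over the 28 genes and -0.11 over all tested genes. With median-of-ratios scaling, which moved the median of all genes to 0.04 and the share of rises among all DE genes from 37.3% to 63.0%, 13 of the 28 genes rose and 1 fell. By role, all 3 tested inhibitors rose, as did 4 of 12 MMPs and 4 of 13 ADAMTS genes. The number of genes more than 1.5-fold higher in a single pair ran from 4 (experiment 2 of H2452) to 17 (experiment 1 of H28), so the experiments of a line differed among themselves.

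**Figure D2:**
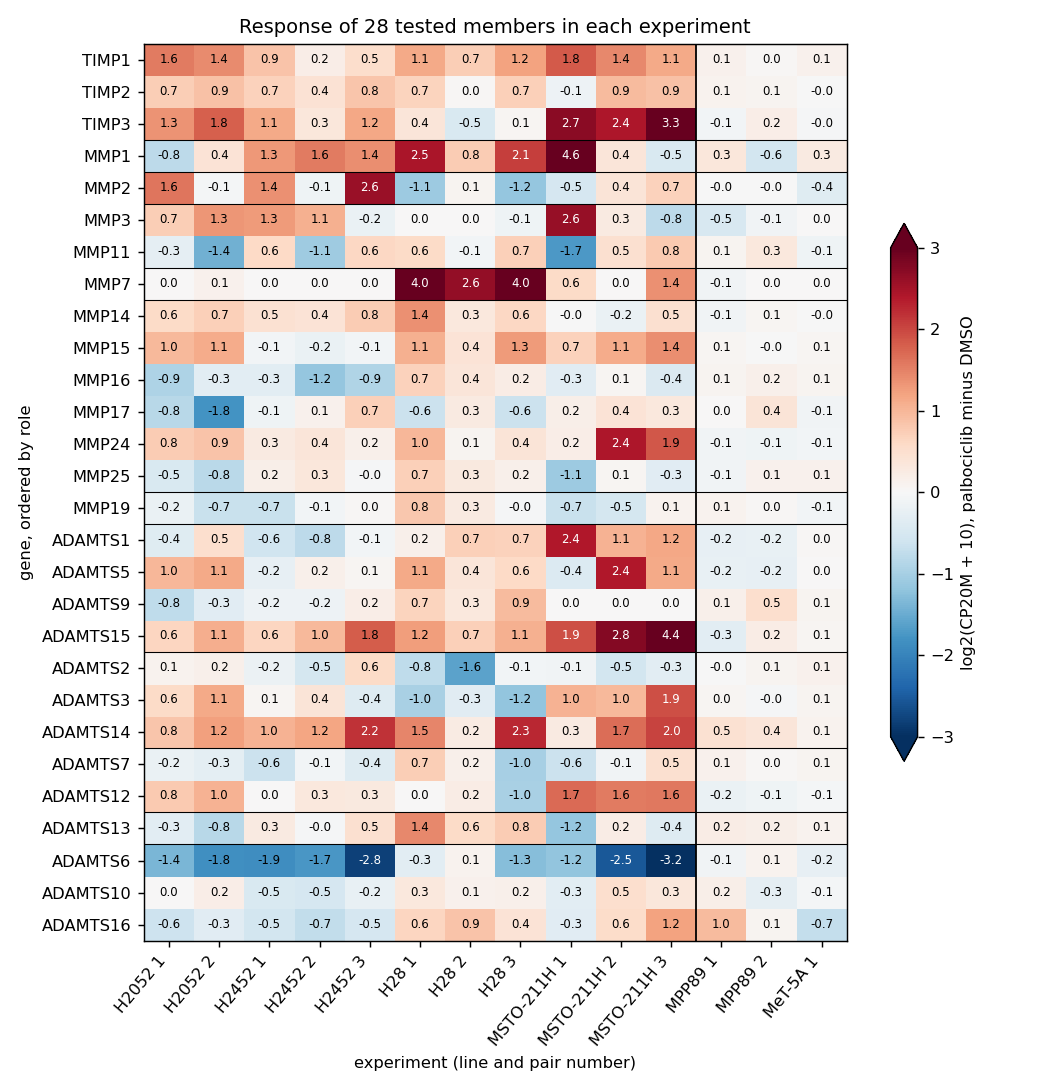
Difference between palbociclib and DMSO in each of 14 experiments (columns, with the 3 pairs of resistant lines right of the line) for the 28 tested genes (rows, by role), as log2(CP20M + 10). Colours end at 3 and -3, and larger values are printed. TIMP1, MMP24, ADAMTS14 and ADAMTS15 were higher in all 11 pairs of sensitive lines.

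The 3 tested inhibitors rose over the sensitive lines, but the lines with a call differed between them. Within single lines, TIMP1 was DE in H2052, H28 and MSTO-211H, TIMP2 in H2452 alone, and TIMP3 in H2052, H2452 and MSTO-211H. TIMP1, a secreted inhibitor, was at 901 and 813 CP20M in H2052 with DMSO and at 2685 and 2183 with palbociclib. In MSTO-211H it went from 1112, 1210 and 1709 CP20M to 3992, 3294 and 3798, and in H28 from 547, 577 and 615 to 1219, 977 and 1436. Treated and control libraries did not overlap in these 3 lines. In H2452, values of 1087, 1671 and 1098 CP20M with DMSO and 1986, 1920 and 1581 with palbociclib overlapped. The log2 difference was 1.10 ± 0.13 (SE, 11 pairs, FDR = 2.4e-05), with a rise in 11 of 11 pairs. It ranged from 0.53 ± 0.33 (SD, n = 3) in H2452 to 1.49 ± 0.11 (SD, n = 2) in H2052, and these responses differed among the lines (F test, FDR = 0.013).

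TIMP3, which is bound to the matrix and inhibits ADAMTS proteases as well as MMPs, showed the widest spread of the inhibitors. In MSTO-211H it was at 4307, 5144 and 6315 CP20M with DMSO and at 28187, 27885 and 63279 with palbociclib. H2052 went from 18401 and 15766 CP20M to 46915 and 54295, without overlap. H2452 went from 1325, 3752 and 759 CP20M to 2921, 4714 and 1716, with overlapping groups but a rise in each pair. H28 stayed low, at 82, 59 and 128 CP20M with DMSO and 108, 40 and 134 with palbociclib. The log2 difference over the sensitive lines was 1.29 ± 0.31 (SE, FDR = 0.0038), with a rise in 10 of 11 pairs. By line it was 2.82 ± 0.45 (SD, n = 3) in MSTO-211H, 1.57 ± 0.31 (n = 2) in H2052, 0.88 ± 0.47 (n = 3) in H2452 and -0.01 ± 0.42 (n = 3) in H28, and the responses differed among the lines (FDR = 0.00047). With the 4 line means as units, TIMP3 did not pass (FDR = 0.076). TIMP4, which was not tested, was at 38 CP20M or below in every library of the sensitive lines. With palbociclib it was lower in 6 of 11 pairs and higher in 0.

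TIMP2 had the smallest rise and the highest starting level. H2052 went from 24210 and 22959 CP20M to 40435 and 42274, and H2452 from 22846, 24029 and 20696 to 37076, 32344 and 36776. Groups did not overlap in either line. H28 went from 6697, 5746 and 4173 CP20M to 10574, 5871 and 6897, and MSTO-211H from 15026, 8864 and 10036 to 13583, 17116 and 18506, and in both the groups overlapped. The difference was 0.61 ± 0.10 on the log2 scale (SE, FDR = 0.00036), with a rise in 10 of 11 pairs. It lies close to the fold threshold. Leaving out experiment 2 of H2052, experiment 3 of H2452, or experiment 2 or 3 of MSTO-211H put it under 1.5-fold, at 0.57 or above. Without H2052 as a whole it was also under 1.5-fold, at 0.56.

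TIMP1 and TIMP3 lie within the genes SYN1 and SYN3, and TIMP4 within SYN2, in each case on the opposite strand. The library kit was directional, but the strand setting of the counting is not given in the sources used here, so reads from both strands may not have been separated. SYN1 was not DE over the sensitive lines (-0.07), and SYN2 and SYN3 stayed under the filter.

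**Figure D3:**
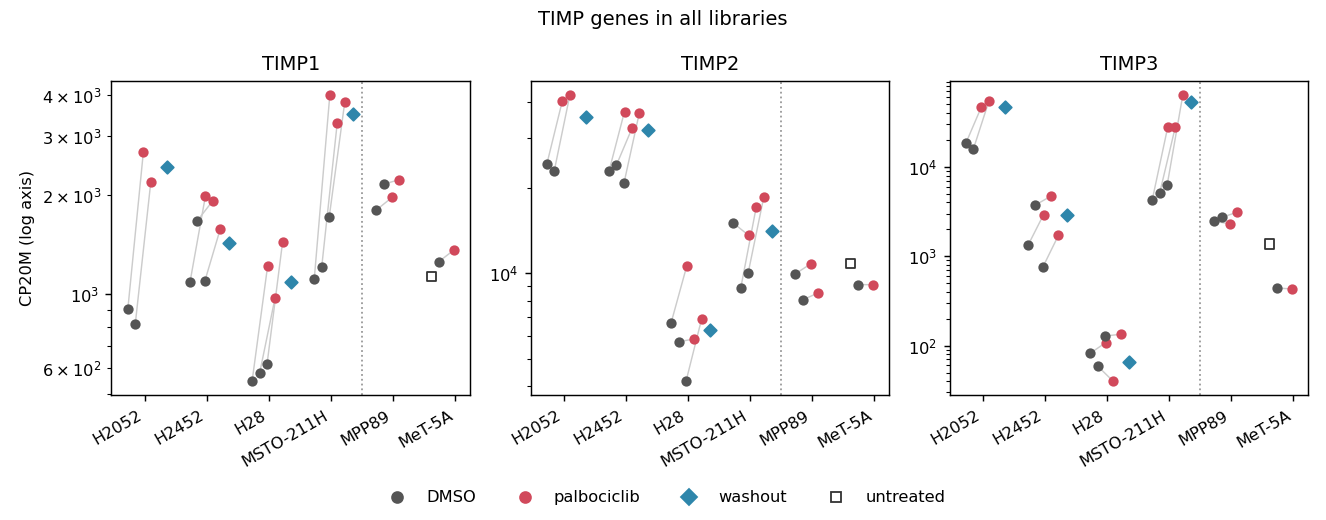
CP20M of TIMP1, TIMP2 and TIMP3 (log axes with their own ranges) in all 33 libraries by line; grey lines join the DMSO and palbociclib libraries of an experiment, diamonds are washout libraries and the open square is the untreated MeT-5A library. The sensitive lines stand left of the dotted line, and the resistant lines right of it show nearly level pairs.

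Among the MMPs, the response of MMP7 was concentrated in H28. MMP7, a matrilysin that lacks the hemopexin domain of most MMPs, was at 43, 427 and 146 CP20M in H28 with DMSO and at 857, 2693 and 2512 with palbociclib, without overlap. This was a log2 difference of 3.56 ± 0.81 (SD, n = 3, FDR = 0.027 in the fit of that line). MSTO-211H had 0, 3 and 0 CP20M with DMSO and 5, 3 and 16 with palbociclib. In H2052 and H2452 the gene was at 0 in all libraries but 1, with 1 CP20M. Over the sensitive lines the difference was 1.16 ± 0.43 (SE, FDR = 0.037), and it did not pass without any 1 of the 3 H28 pairs or without experiment 3 of MSTO-211H. The responses differed among the lines (FDR = 0.00047).

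MMP1, the interstitial collagenase, rose over the sensitive lines with a large spread between experiments (1.24 ± 0.39, SE, FDR = 0.018, 9 of 11 pairs). In H2452 it was at 8, 7 and 9 CP20M with DMSO and at 34, 40 and 40 with palbociclib, without overlap, and H28 went from 2, 0 and 13 to 56, 7 and 87. Both lines stayed under 100 CP20M. H2052 and MSTO-211H held more of this RNA and did not move one way. H2052 went from 3182 to 1829 CP20M in experiment 1 and from 675 to 904 in experiment 2. MSTO-211H went from 185 to 4593 CP20M in experiment 1, from 21 to 30 in experiment 2 and from 2486 to 1814 in experiment 3. MMP1 lies within WTAPP1, a pseudogene on the opposite strand, and without H2452 or without H28 its call was lost.

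The membrane-type MMPs were all tested, and 2 of 6 rose. MMP15 went from 818 and 778 CP20M to 1613 and 1683 in H2052, from 447, 590 and 309 to 942, 793 and 762 in H28, and from 1207, 526 and 788 to 1964, 1149 and 2079 in MSTO-211H. In H2452 it was lower in each of 3 pairs (1451, 1304 and 1338 against 1368, 1142 and 1254 CP20M), with a log2 difference of -0.12 ± 0.06 (SD). The difference over the sensitive lines was 0.70 ± 0.16 (SE, FDR = 0.0026), and the lines differed in it (FDR = 0.0051). MMP24 went from 1635 and 2281 CP20M to 2782 and 4162 in H2052, from 1153, 2533 and 838 to 1395, 3240 and 934 in H2452, from 544, 1375 and 561 to 1092, 1460 and 740 in H28, and from 338, 216 and 266 to 390, 1211 and 998 in MSTO-211H. Groups overlapped in H2452 and H28. It was higher in 11 of 11 pairs (0.76 ± 0.20, SE, FDR = 0.0066), with pairs between 0.09 and 2.43 and the largest in experiment 2 of MSTO-211H. MMP24 lies within MMP24OS, a gene on the opposite strand. Without MSTO-211H, neither MMP15 nor MMP24 passed.

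MMP14 stayed under the fold threshold over the sensitive lines (0.50 ± 0.11, SE, FDR = 0.0027), though it was higher in 9 of 11 pairs and DE in H2052 (0.64). H2452 had the most, from 9732, 6382 and 9346 CP20M with DMSO to 13301, 8516 and 15862 with palbociclib. Its substrate pro-MMP2 is encoded by MMP2, a gelatinase, which was not DE (0.34 ± 0.30, SE, FDR = 0.37) and varied between experiments of a line. In H2452, MMP2 went from 877 to 2271, from 1099 to 997 and from 381 to 2348 CP20M. MMP16, MMP17 and MMP25 were not DE over the sensitive lines or in any line, but their responses differed among the lines (FDR from 0.018 to 0.044). MMP3, MMP11 and MMP19 were not DE in any of these comparisons. MMP3, a stromelysin, did not exceed 197 CP20M and had a log2 difference of 0.56 ± 0.26 (SE, FDR = 0.085).

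Of the 9 MMP genes clustered on chromosome 11, MMP1, MMP3 and MMP7 were tested, and MMP1 and MMP7 rose over the sensitive lines. MMP8, MMP10, MMP12, MMP13, MMP20 and MMP27, which lie in the same cluster, did not go above 20 CP20M in any library. In H28, where MMP7 reached 2693 CP20M, MMP3 was at 1 CP20M or below.

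**Figure D4:**
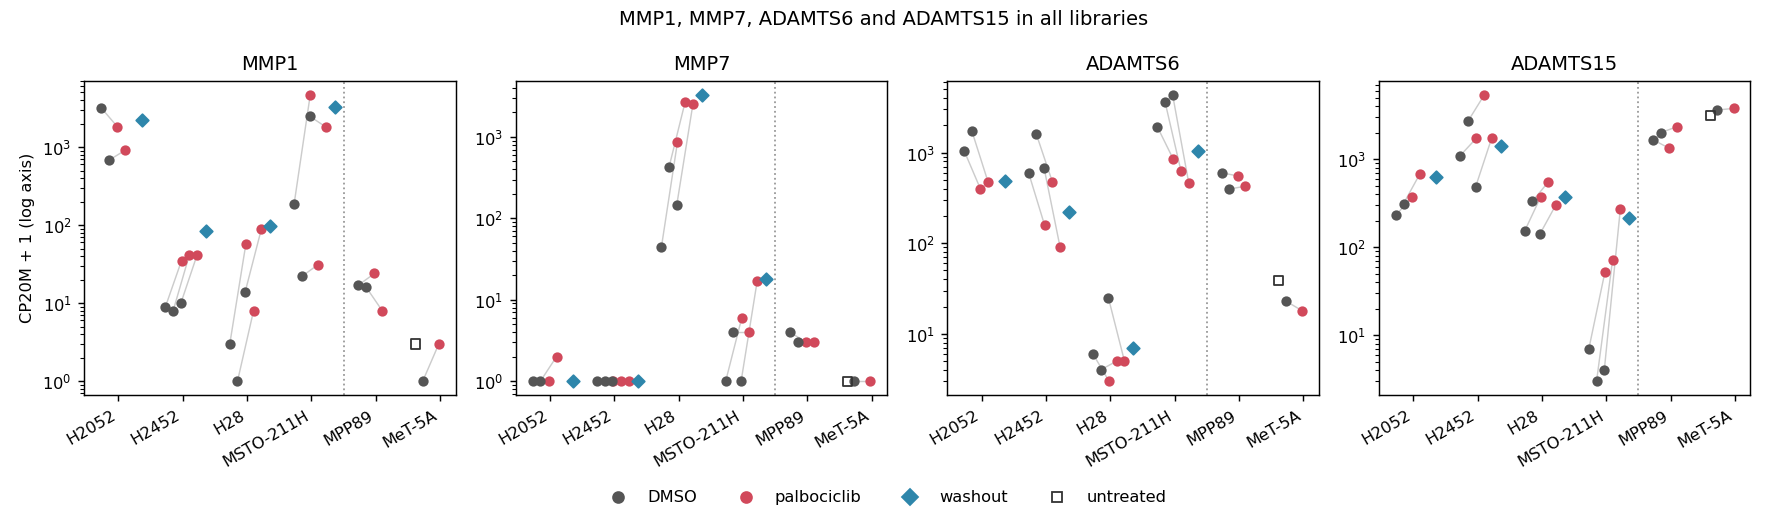
CP20M + 1 of MMP1, MMP7, ADAMTS6 and ADAMTS15 (log axes with their own ranges) in all 33 libraries by line; symbols as in the plot of TIMP levels. MMP7 stands out in H28, where it went from 43, 427 and 146 to 857, 2693 and 2512 CP20M, and ADAMTS6 fell in 10 of 11 pairs of the sensitive lines.

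ADAMTS6, a close relative of the microfibril-associated ADAMTS10, was the 1 gene of the group that fell over the sensitive lines. It went from 1038 and 1710 CP20M to 398 and 472 in H2052, from 597, 1598 and 677 to 156, 473 and 89 in H2452, and from 1934, 3657 and 4288 to 843, 621 and 460 in MSTO-211H. Treated libraries were below all controls in these 3 lines. H28 expressed little of it, with 5, 3 and 24 CP20M against 2, 4 and 4. The log2 difference was -1.64 ± 0.26 (SE, FDR = 0.00024), with a fall in 10 of 11 pairs. ADAMTS10 itself was not DE (0.01 ± 0.11, SE).

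ADAMTS15 and ADAMTS14 were each higher in 11 of 11 pairs. ADAMTS15, a proteoglycan-cleaving enzyme, was at 6, 2 and 3 CP20M in MSTO-211H with DMSO and at 51, 71 and 272 with palbociclib. H2452 went from 1093, 2682 and 483 CP20M to 1720, 5292 and 1734, H28 from 150, 329 and 140 to 369, 548 and 303, and H2052 from 230 and 311 to 366 and 671. The relative change was thus largest where the gene was lowest, with a log2 difference of 3.04 ± 1.28 (SD, n = 3) in MSTO-211H, and the treated cells of that line still held less than the controls of H2452. Over the sensitive lines it was 1.58 ± 0.30 (SE, FDR = 0.00085). ADAMTS14, which removes the amino-terminal propeptide of procollagens, rose by 1.31 ± 0.19 (SE, FDR = 0.00012), from 18 and 26 to 40 and 74 CP20M in H2052 and from 393, 139 and 186 to 821, 331 and 871 in H2452. H28 went from 30, 38 and 36 CP20M to 100, 47 and 209, and MSTO-211H from 175, 29 and 50 to 212, 114 and 236. Its response was not found to differ among the lines. The other procollagen N-proteinases, ADAMTS2 and ADAMTS3, were not DE over the sensitive lines (-0.30 and 0.30).

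ADAMTS12 and ADAMTS5 passed over the sensitive lines with less margin. ADAMTS12, which cleaves cartilage oligomeric matrix protein, rose in H2052 (5734 and 6151 to 9927 and 12615 CP20M) and MSTO-211H (1647, 1921 and 2120 to 5381, 5661 and 6394), and in H28 it did not go above 29 CP20M. In H2452 it was at 2524, 2587 and 2540 CP20M with DMSO and at 2558, 3232 and 3110 with palbociclib. Its difference of 0.60 ± 0.22 (SE, FDR = 0.035) did not pass when any 1 pair of H2052 or MSTO-211H was left out. ADAMTS5, an aggrecanase, was at 131 and 218 CP20M in H2052 with DMSO and at 270 and 492 with palbociclib, and did not exceed 59 in the treated cells of the other sensitive lines. In H28 it went from 18, 34 and 13 CP20M to 52, 47 and 25, in H2452 from 9, 34 and 11 to 6, 39 and 12, and in MSTO-211H from 6, 3 and 0 to 2, 59 and 12. Its difference of 0.67 ± 0.22 (SE, FDR = 0.022) passed under 15 alternative settings of the fit and did not pass under 9. Among these 9 was the fit without experiment 2 of MSTO-211H, where ADAMTS5 went from 3 to 59 CP20M. When a pair or a line was left out, the log2 difference lay between 0.50 and 0.92. ADAMTS7, which also cleaves cartilage oligomeric matrix protein, was not DE (-0.18 ± 0.14, SE).

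Within single lines, 18 of the 28 genes were DE in at least 1 of the 4 sensitive lines, as were 39.2% of all tested genes. None rose in all 4 lines, as 0.208% of all tested genes did, and none rose in 1 line and fell in another, as 1.12% did. In H2052, 9 of the 28 were DE (32.1%, against 17.7% of all genes). Of these 8 rose, as did 4.67% of all genes, and 1 fell, as did 13.0%. In H2452, 7 were DE (25.0%, against 16.8%), with 5 rises and 2 falls beside 6.04% and 10.8% of all genes. In H28, 7 were DE (25.0%, against 13.2%), all of them rises, beside 5.89% rises and 7.34% falls over all genes. In MSTO-211H, 8 were DE (28.6%, against 13.8%), with 7 rises and 1 fall beside 5.90% and 7.94% of all genes. Median-of-ratios scaling moved the share of rises among all DE genes from 26.5% to 66.1% in H2052, from 35.9% to 60.5% in H2452, from 44.5% to 60.6% in H28 and from 42.7% to 60.8% in MSTO-211H. With it, 11 of the 28 genes rose and 1 fell in H2052, 7 rose and 1 fell in H2452, 8 rose in H28, and 6 rose and 0 fell in MSTO-211H. TIMP1 and MMP15 rose in H2052, H28 and MSTO-211H, TIMP3 in H2052, H2452 and MSTO-211H, and ADAMTS15 in H2452, H28 and MSTO-211H. These calls lie close to the FDR threshold, and without any 1 pair no gene of the 17803 passed in H28 or MSTO-211H.

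Some ADAMTS genes were DE in a single line. ADAMTS9 rose in H28 from 3164, 4039 and 2278 to 5042, 5069 and 4388 CP20M (0.65 ± 0.14, SE, FDR = 0.048), and ADAMTS13, which cleaves von Willebrand factor, rose there from 248, 434 and 299 to 693, 656 and 518 (0.93 ± 0.20, SE, FDR = 0.049). In MSTO-211H, the versican-cleaving ADAMTS1 rose from 816, 700 and 1021 to 4343, 1461 and 2301 CP20M (1.54 ± 0.31, SE, FDR = 0.049), and ADAMTS3 from 137, 69 and 49 to 291, 145 and 217 (1.32 ± 0.27, SE, FDR = 0.049). ADAMTS16 fell in H2452 from 224, 181 and 256 to 150, 105 and 177 CP20M (-0.60 ± 0.10, SE, FDR = 0.027). Each of these 5 genes also differed in its response among the sensitive lines. In all, 15 of the 28 responses (53.6%) differed among the lines in the F test, as did 37.1% of all tested genes. Some of these genes were near 0 in a line, where the scale understates any change. MMP7 was at 0 in H2452, and ADAMTS9 did not exceed 3 CP20M in MSTO-211H. In H28, ADAMTS12 did not exceed 29 CP20M and ADAMTS6 did not exceed 24. For such genes the test cannot tell a weaker response from low expression of the gene.

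In the resistant lines, 0 of the 28 genes and 0 of the 17803 genes were DE over the 3 pairs in limma. At an unadjusted p under 0.05 there were 5 of the 28 and 1258 of all genes, and in MPP89 alone 4 and 918. The estimates of the 28 genes lay between -0.20 and 0.30 on the log2 scale. TIMP1 went from 1799 to 1962 and from 2152 to 2222 CP20M in MPP89 and from 1254 to 1363 in MeT-5A, a log2 difference of 0.10 ± 0.03 (SE, FDR = 0.69). TIMP3 went from 2457 to 2312 and from 2729 to 3117 CP20M in MPP89 and from 441 to 431 in MeT-5A. ADAMTS6 went from 597 to 553 and from 395 to 425 CP20M in MPP89, and from 22 to 17 in MeT-5A. In the MeT-5A pair, which has no replicate, 1 gene was past 1.5-fold, ADAMTS16, from 47 to 25 CP20M.

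The difference in response between the sensitive and the resistant lines was itself tested, with pairs as units. Class belongs to the line, and the fit has no term for the response of a line. Its SE and FDR thus measure the spread between pairs, not between lines. TIMP1 passed, with a response larger by 1.00 ± 0.26 on the log2 scale (SE, FDR = 0.026) in the sensitive lines, and it was the 1 of 28 genes that did (3.57%, against 6.75% of all genes, of which 1.13% had a higher and 5.62% a lower difference in the sensitive lines). With median-of-ratios scaling, 2 of the 28 passed, both higher, and the share of higher values among all genes that passed went from 16.8% to 52.5%. The call was lost without either MPP89 pair or without the MeT-5A pair (FDR = 0.11 to 0.12). ADAMTS6 (-1.55 ± 0.53, SE, FDR = 0.072), ADAMTS15 (1.59 ± 0.60, SE, FDR = 0.10), TIMP2 (0.54 ± 0.20, SE, FDR = 0.10) and TIMP3 (1.27 ± 0.62, SE, FDR = 0.20) did not pass, so that their responses were not shown to differ between the classes, though they passed in one and not in the other.

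After washout, MKI67 was 2.99 higher on the log2 scale than with palbociclib (FDR = 0.035). None of the 28 genes was DE between washout and palbociclib. For all tested genes the share was 1.40%, all of them higher after washout. With a share this low, the absence of calls does not set the 28 genes apart. At an unadjusted p under 0.05 there were 4 of the 28 and 2322 of all genes in limma, and the estimates of the 28 genes lay between -0.42 and 0.78 with no FDR below 0.22.

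Against DMSO, 8 of the 28 genes were DE after washout (28.6%, against 5.76% of all tested genes). TIMP1, MMP1, MMP15, ADAMTS1, ADAMTS5, ADAMTS14 and ADAMTS15 were higher, as were 2.81% of all genes, and ADAMTS6 was lower, as were 2.95%. With median-of-ratios scaling 8 were higher and 1 lower, while the share of higher values among all DE genes went from 48.7% to 72.1%. Comparisons of palbociclib and of washout with DMSO share their control libraries, so the values are given side by side. TIMP1 was at 2422 (H2052), 1427 (H2452), 1089 (H28) and 3518 CP20M (MSTO-211H) after washout, above the DMSO library of the same experiment in 4 of 4 lines (0.95 ± 0.17, SE, FDR = 0.010). ADAMTS6 was at 490, 221, 6 and 1050 CP20M in the same order, below DMSO in 4 of 4 lines (-1.62 ± 0.28, SE, FDR = 0.010), and above palbociclib in 4 of 4, by 0.66 ± 0.28 (SE, FDR = 0.35). ADAMTS1 was at 4451, 1345, 1678 and 3181 CP20M, and in H2452 it had been at 563 with DMSO and 532 with palbociclib.

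TIMP2 was 0.58 ± 0.08 above DMSO after washout (SE, FDR = 0.0059), just under the fold threshold, in 4 of 4 lines. It was below palbociclib in 4 of 4 lines (-0.25 ± 0.08, SE, FDR = 0.23), as was MMP14 (-0.31 ± 0.10, SE, FDR = 0.22). MMP1 was above palbociclib in 4 of 4 lines (0.78 ± 0.36, SE, FDR = 0.39). TIMP3 was at 46857 (H2052), 2876 (H2452), 66 (H28) and 53498 CP20M (MSTO-211H) after washout, and was not DE against DMSO (1.42 ± 0.52, SE, FDR = 0.10). H28 was the 1 line below its DMSO value of 128, and without H28 the difference passed. MMP7 was at 3247 CP20M in H28, against 146 with DMSO and 2512 with palbociclib in that experiment, and at 17 or below in the other lines. With 1 washout library per line, the lines serve as replicates, and without H2052 1 gene of the 28 stayed DE, without H28 5, and without MSTO-211H 3.

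**Figure D5:**
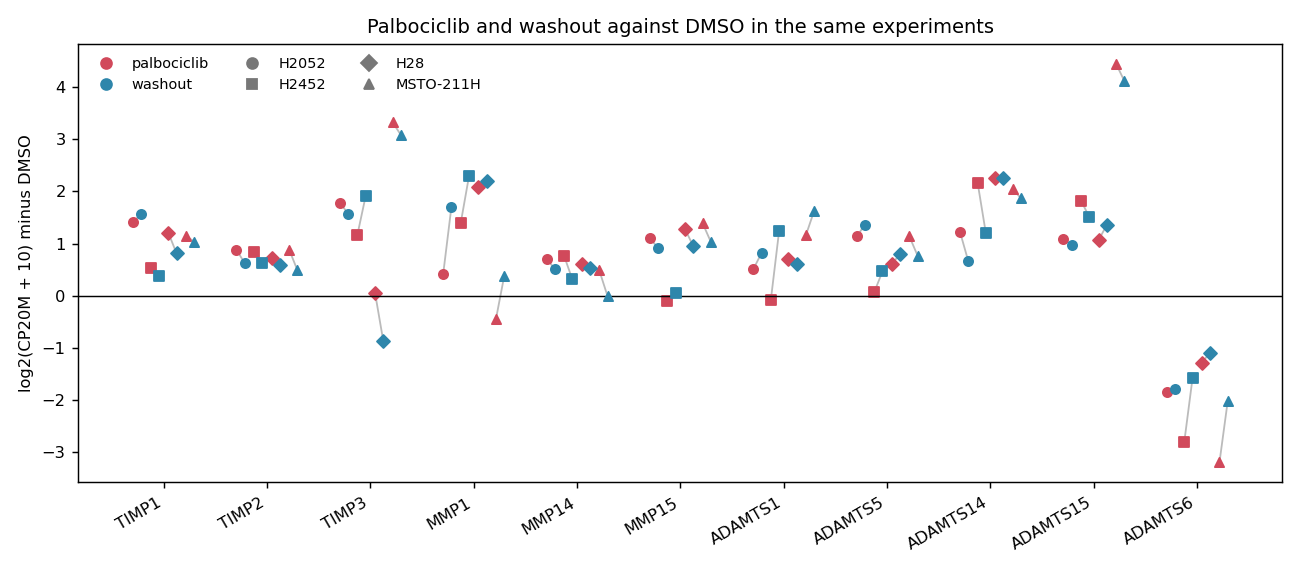
Log2(CP20M + 10) of palbociclib (red) and washout (blue) libraries minus the DMSO library of the same 10 days experiment, for 11 genes and 4 sensitive lines (symbols). Most washout values lie near the palbociclib value of their line, with TIMP1 between 0.38 and 1.56 and ADAMTS6 between -2.02 and -1.09.

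Genes that act with these proteases were counted from fixed lists, also chosen with earlier results known. Of 37 such genes, 29 were tested, and 8 rose (27.6%, against 5.58% of all tested genes) and 1 fell (3.45%, against 9.37%) over the sensitive lines. Among the other inhibitors and clearance factors, 3 of 5 rose: LRP1, the endocytic receptor that clears proteases and their complexes (1.27 ± 0.15, SE, FDR = 2.8e-05), RECK, a membrane-anchored MMP inhibitor (1.09 ± 0.14, SE, FDR = 4.5e-05), and SPOCK1, a secreted proteoglycan (1.18 ± 0.22, SE, FDR = 0.00062). Of the 4 proprotein convertases, which cut the propeptide of membrane-type MMPs and ADAMTS proteases, PCSK5 (0.97) and PCSK7 (0.66) rose, and FURIN (-0.04) and PCSK6 (-0.05) were not DE. Of 6 tested ADAMTS-like proteins, which lack the protease domain, ADAMTSL4, ADAMTSL5 and THSD4 rose. None of 7 ADAM sheddases was DE, nor was BSG, an inducer of MMPs (0.37). Of 5 tested substrates, COL1A1 fell (-1.20 ± 0.44, SE, FDR = 0.036) and VCAN, COL1A2, COL3A1 and BCAN were not DE. After washout, LRP1 (1.16), RECK (0.97), PCSK5 (1.24) and PCSK7 (0.69) were still above DMSO. With palbociclib in single lines, 7 of the 29 rose and 4 fell in H2052 (24.1% and 13.8%, against 4.67% and 13.0% of all genes). In H2452 5 rose and 4 fell (17.2% and 13.8%, against 6.04% and 10.8%). In H28 4 rose and 3 fell (13.8% and 10.3%, against 5.89% and 7.34%). In MSTO-211H 7 rose and 0 fell (24.1% and 0%, against 5.90% and 7.94%). Of the ADAMTS-like genes, 2 fell and 0 rose in H2052, and 2 fell and 1 rose in H28.

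Summed over each family, the TIMP total was higher with palbociclib in 11 of 11 pairs of sensitive lines, by a ratio of 1.08 to 4.74 with a median of 1.78. The MMP total was also higher in 11 of 11 pairs (1.22 to 2.46, median 1.54), and the ADAMTS total in 10 of 11 (0.99 to 2.01, median 1.30). In the 3 pairs of resistant lines the ratios were 1.01 to 1.07, 0.96 to 1.02 and 0.90 to 1.03. These sums weigh long and abundant genes most, and they were not tested.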

How the data were processed

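RNA-seq libraries of 6 established cell lines were analysed. The authors prepared directional libraries, trimmed the reads (Trimmomatic 0.36), aligned them against GRCh38 and Ensembl 90 (STAR 2.5.3), obtained counts with HTSeq 0.9.1 and scaled these to 20000000 per library (CP20M). The deposited values are this normalized score, rounded up to whole numbers, and not counts of reads, so the count model of the authors (DESeq2) was not used. Each column adds up to about 20000000 and gives no depth. From the whole numbers that rounded values skip, the depth of 22 libraries was estimated (median 16265000), and 1 read stands for 1.57 CP20M in the shallowest of them. Among replicates, at most 4.33% of the values of tested genes were identical.

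Genes that reached 100 CP20M in any library were kept, and log2(CP20M + 10) was fitted in R 4.3.3 by limma 3.58.1 (lmFit, then eBayes using a trend), with the experiment as a block and Benjamini-Hochberg FDR over all 17803 genes. Treated and control samples were paired within experiments in the study, and deviations from the group means of same-numbered libraries correlated at 0.18 to 0.78. The F tests among lines have no fold threshold, and the washout fits used 12 libraries with the line as a block. Nothing in the labels says whether replicates are separate cultures beyond separate experiments, so p-values measure the spread between these samples. Values per library are given for the tested TIMP genes and for genes called over the sensitive lines, and for genes called in 1 line in that line or its range. The members and gene lists were chosen with earlier results of these data known.

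The fits were tested on simulated data with 200 changed genes among 17803. They recovered 99% of 2-fold changes over the 11 pairs of sensitive lines, 96% in the 3 pairs of H2452 and 68% in the 2 pairs of H2052. In these fits the change was the same in each line and lay in genes with a mean above 100 CP20M, at the spread of abundant genes. The shares therefore do not hold for low genes or for responses that differ between lines. The F tests recovered 67% for the response among the sensitive lines and 57% for the control level, with 8 false calls in each. Alternatives were no replicate block, other pseudocounts, filters and scalings, no trend, line means, and leaving out pairs or lines. All 45 genes were matched by identifier in GENCODE 44, and promoters came from RefSeq. Protein sequences were not used here.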

Additional observations from a re-analysis of the deposited data

Results flagged for a closer look

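The response to palbociclib differed among the 4 sensitive lines for 15 of the 28 tested genes in the F test of the difference itself, beside 37.1% of all tested genes. The spread is given as the highest minus the lowest line mean on the log2 scale. It was 3.56 for MMP7 (FDR = 0.00047, highest in H28), 2.84 for TIMP3 (FDR = 0.00047, highest in MSTO-211H), 2.18 for ADAMTS15 (FDR = 0.020) and 2.15 for ADAMTS3 (FDR = 0.0034). It was 2.02 for ADAMTS1 (FDR = 0.0070), 1.86 for ADAMTS12 (FDR = 0.0015), 1.81 for ADAMTS6 (FDR = 0.043) and 1.61 for MMP17 (FDR = 0.018). For ADAMTS13 it was 1.52 (FDR = 0.020), for ADAMTS16 1.23 (FDR = 0.023), for MMP16 1.21 (FDR = 0.019) and for ADAMTS9 1.20 (FDR = 0.017). The smallest were 1.19 for MMP15 (FDR = 0.0051), 1.03 for MMP25 (FDR = 0.044) and 0.96 for TIMP1 (FDR = 0.013). For MMP7, ADAMTS6, ADAMTS9 and ADAMTS12 the spread includes a line with little or none of the RNA, where a change is understated.

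MMP17 had a log2 difference of -1.30 ± 0.68 (SD, n = 2) in H2052 and 0.30 ± 0.11 (n = 3) in MSTO-211H, and MMP16 of -0.79 ± 0.44 (n = 3) in H2452 and 0.42 ± 0.24 (n = 3) in H28. ADAMTS13 had 0.93 ± 0.45 (n = 3) in H28 and -0.58 ± 0.37 (n = 2) in H2052. ADAMTS3 had 1.32 ± 0.54 (n = 3) in MSTO-211H and -0.83 ± 0.44 (n = 3) in H28. The part of culture conditions or experiment dates in these differences was not tested.

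Between the sensitive and the resistant lines, the response differed for TIMP1, by 1.00 (FDR = 0.026, with pairs and not lines as units), where 6.75% of all tested genes differed. The resistant class holds an MPM line and immortalized mesothelial cells, so that pRb status and line identity cannot be told apart.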

How the results depend on the processing

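Over the sensitive lines, 8 to 12 of the 28 genes were DE when a pair or a line was left out (lines were added after seeing the data), and 6 with line means as units. TIMP1, ADAMTS6, ADAMTS14 and ADAMTS15 passed under all 24 alternatives. In H2052, 4 were DE with a pseudocount of 1, 1 without a filter, 16 with the filter within the fit and 0 without trend (17 at an unadjusted p under 0.05), against 9. In H2452 there were 2 without the replicate block and 0 to 2 without a pair, against 7. H28 gave 2 without the block, 4 with a pseudocount of 1, 3 without a filter, 11 with the filter within the fit, 4 without trend and 0 without a pair, against 7. MSTO-211H gave 5 without the block, 5 with a pseudocount of 1, 3 without a filter, 5 without trend and 0 without a pair, against 8. At an unadjusted p under 0.05, 7 to 17 of the 28 passed in the fits of H2452, H28 and MSTO-211H without a pair. Between the classes there were 2 with a pseudocount of 50, 0 without a filter, 2 with median-of-ratios scaling and 0 to 2 without a pair, against 1 (with 0, 3 to 7 of the 28 were at an unadjusted p under 0.05). Among the sensitive lines there were 5 without the block and 9 to 19 without a pair, against 15. Washout against DMSO gave 0 without the block (0 of the 28 and 377 of all genes at an unadjusted p under 0.05), 5 with a pseudocount of 1, 5 without a filter and 1 to 6 without a line, against 8. The counts for the resistant lines and for washout against palbociclib stayed at 0. Where these counts moved, the cause was not tested.

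Alternatives were run for the counts and for most named genes, not for each of the 28. Among those not DE, ADAMTS10 over the sensitive lines (0.01) was -0.018 with a pseudocount of 50 and -0.056 to 0.17 when a pair or line was left out, and ADAMTS3 was -0.088 (without MSTO-211H) to 0.72. The log2 difference of MMP2 over the sensitive lines was -0.0071 (without H2452) to 0.74 when a pair or line was left out. After washout against palbociclib, MMP7 was at -0.14 with a pseudocount of 1 and at -0.028 (without H28) to 0.14 when a line was left out, and TIMP3 at -0.46 to 0.10 (without H28). H2052 and MPP89 were not fitted without a pair, since 1 pair leaves no residual degrees of freedom. Genes below about 10 CP20M rest on few reads. The depth of 11 libraries has no estimate, since they skip at most 1 of the low whole numbers. That is fewer than in any library with an estimate, so by this measure they are the deeper ones. Absence of a call is not evidence of equal levels.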
